A study of Mus musculus with 2 samples.

Results

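The genes described are 10 members of the major histocompatibility complex (MHC) class I pathway, followed in single cells of the mouse lateral subventricular zone, the stem cell niche beside the lateral ventricles. They were chosen by symbol: the heavy chains H2-K1, H2-D1 and H2-T23, the light chain B2m, the peptide transporter subunits Tap1 and Tap2, the loading factor Tapbp, and the immunoproteasome subunits Psmb8, Psmb9 and Psmb10. All 10 had a row among the 27998 genes of the deposited table, and each had UMIs among the 18470 genes with any. Transcripts were counted by unique molecular identifiers (UMIs), short random tags that mark each captured molecule. The mice were male C57BL/6 animals of 22 months, with tissue of 8 pooled, and of 2 months, with tissue of 4 pooled, and each age gave 1 library. Cells of both ages had been sorted as positive for GLAST, a glutamate transporter of radial glia and astrocytes, and as negative for O4 (oligodendrocyte lineage), Ter119 (erythroid) and CD45 (leukocyte). The labels tie neither library number to an age, so values are given for library 1 and library 2 and no age was compared. Each age being a single library, no replicate spread exists, no test between libraries was possible, and every interval below is a 95% interval for counting error only.

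MHC class I molecules carry peptides cut from a cell's own proteins to its surface, where CD8 T cells and natural killer cells read them. Proteasomes cut the peptides, the Tap1 and Tap2 transporter moves them into the endoplasmic reticulum, tapasin (Tapbp) holds the empty molecule at the transporter, and a heavy chain leaves for the surface together with B2m. Interferon raises most of these genes and makes cells build immunoproteasomes, in which Psmb8, Psmb9 and Psmb10 take the places of the constitutive catalytic subunits Psmb5, Psmb6 and Psmb7. Most resting brain cells, neurons above all, hold little class I, and microglia and endothelial cells hold more.

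Of the 10 genes, 8 lie on chromosome 17, within or close to the mouse MHC, while B2m lies on chromosome 2 and Psmb10 on chromosome 8 (GRCm38). Promoter windows of 300 bases, 250 before and 50 after a start, were found for 9 of the 10 genes, Tap2 being the other. They are shown for the genes on which the results turn, to show which of them hold letters of interferon or kappa B elements; 5 members held a match and no motif was common to all. They come from RefSeq on GRCm38.p6 and read 5′ to 3′ on the strand of the gene: H2-K1 at chr17:34000298-34000597 (minus strand), H2-D1 at chr17:35262844-35263143 (plus), B2m at chr2:122147437-122147736 (plus), Psmb8 at chr17:34197945-34198244 (plus) and Tap1 at chr17:34187306-34187605 (plus). Capitals mark matches to 3 motifs searched on both strands: a kappa B element (GGGGATT followed by CCCC), an interferon-stimulated response element (GAAA, any 2 bases, GAAA) and a gamma-activated site (TTC, any 3 bases, GAA).
H2-K1: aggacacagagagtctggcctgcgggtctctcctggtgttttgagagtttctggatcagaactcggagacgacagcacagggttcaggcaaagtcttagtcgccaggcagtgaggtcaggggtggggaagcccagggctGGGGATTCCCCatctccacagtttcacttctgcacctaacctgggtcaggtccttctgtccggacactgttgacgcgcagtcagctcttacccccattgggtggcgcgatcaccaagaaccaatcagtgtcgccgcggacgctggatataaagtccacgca
H2-D1: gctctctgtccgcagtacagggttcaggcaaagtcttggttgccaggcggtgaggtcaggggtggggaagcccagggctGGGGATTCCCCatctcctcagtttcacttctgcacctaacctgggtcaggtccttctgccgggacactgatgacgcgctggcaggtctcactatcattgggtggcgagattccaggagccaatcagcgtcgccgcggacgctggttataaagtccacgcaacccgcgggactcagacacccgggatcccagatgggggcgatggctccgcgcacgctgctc
B2m: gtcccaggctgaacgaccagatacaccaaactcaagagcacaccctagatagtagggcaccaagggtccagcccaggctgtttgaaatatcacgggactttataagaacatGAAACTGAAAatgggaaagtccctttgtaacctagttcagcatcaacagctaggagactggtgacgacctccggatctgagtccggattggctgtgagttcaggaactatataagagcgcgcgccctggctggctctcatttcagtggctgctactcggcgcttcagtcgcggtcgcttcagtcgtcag
Psmb8: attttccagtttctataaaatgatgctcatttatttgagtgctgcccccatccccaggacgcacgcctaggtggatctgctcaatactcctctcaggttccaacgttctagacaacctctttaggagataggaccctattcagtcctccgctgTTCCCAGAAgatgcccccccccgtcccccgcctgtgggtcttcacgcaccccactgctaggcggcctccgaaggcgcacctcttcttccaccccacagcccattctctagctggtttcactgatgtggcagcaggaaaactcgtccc
Tap1: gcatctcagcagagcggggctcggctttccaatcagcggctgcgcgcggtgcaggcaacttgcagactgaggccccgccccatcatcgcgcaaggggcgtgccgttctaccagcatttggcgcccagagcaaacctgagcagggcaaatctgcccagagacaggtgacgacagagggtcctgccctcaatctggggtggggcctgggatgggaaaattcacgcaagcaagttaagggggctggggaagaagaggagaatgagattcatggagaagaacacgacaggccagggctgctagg

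The kappa B letters began 111 bases before the start of H2-K1 and 171 bases before that of H2-D1. They were held by 10 of 32851 RefSeq promoter windows (0.0304%), overlapping windows of H2-K1 among them. Over the aligned stretch the H2-K1 and H2-D1 windows were identical at 211 of 239 bases (88.3%). B2m held the interferon-stimulated response element 139 bases before its start, and H2-T23 held it on the opposite strand 124 bases before its start; 3.44% of all windows held it. Psmb8 held the letters of a gamma-activated site, which read the same on both strands, 97 bases before its start, a motif found in 8.30% of windows. The Tap1 window shares 275 bases with that of Psmb9, which is read in the other direction, and neither held any of these letters, nor did those of Tapbp and Psmb10. The kappa B pattern has no free base and the other motifs do, so the percentages of windows cannot be set against one another. A match is a description of letters and not of a bound site.

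Libraries 1 and 2 held 1849 and 2088 barcodes with 10440891 and 13330251 UMIs, and 1825 and 2064 cells were kept; 4 barcodes had the same bases in both. Clustering without any gene of the pathway lists gave 17 clusters. Of these, 2 were named astrocyte-like (573 cells in library 1 and 514 in library 2), 2 activated (175 and 320), 3 neuroblast (366 and 509) and 1 oligodendrocyte (99 and 9), while 591 and 665 cells were in clusters that could not be named. All 20 astrocyte, 15 activation, 14 neuroblast and 12 oligodendrocyte markers had UMIs in their own class in library 1. Nearly all of them also had UMIs in the other classes there, and clusters were named from these markers, so this is no check of the names. The summed activation markers were not particular to the activated class: they stood at 6787 and 6829 CPM (UMIs of a gene or list per 1000000 UMIs of the class and library) in activated cells of libraries 1 and 2, and at 7029 and 7807 CPM in neuroblasts. Astrocyte-like cells were mixed differently in both libraries: cluster 0 (led by Cxcl14, Slc7a10 and Htra1) gave 524 and 301 of them and cluster 6 (led by Gfap, S100a6 and Thbs4) gave 49 and 213. Median UMIs per cell were 11297 and 10691 in activated cells, 3564.5 and 5122 in neuroblasts, 4210 in oligodendrocytes of library 1, and 3352 and 3401.5 in astrocyte-like cells. All levels are summed UMIs of a class and library scaled to CPM, which is a share of the captured RNA and not an amount per cell.

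In astrocyte-like cells nearly all of these genes were captured more often in library 1 than in library 2, and astrocyte-like cells held a larger share of them than activated cells and neuroblasts of the same library and than oligodendrocytes of library 1. The 10 genes together gave 179 CPM (160 to 199) in library 1 and 118 CPM (107 to 130) in library 2 of activated cells. Neuroblasts gave 138 and 94.7 CPM, oligodendrocytes of library 1 gave 237 CPM, and astrocyte-like cells gave 690 CPM (653 to 728) in library 1 and 412 CPM (383 to 442) in library 2. The library 1 over library 2 ratio of the sum was 1.67-fold (1.53 to 1.83) in astrocyte-like cells, 1.51-fold (1.31 to 1.75) in activated cells and 1.46-fold (1.22 to 1.74) in neuroblasts. The 9 oligodendrocytes of library 2 gave 5 UMIs of the 10 genes, so no ratio is drawn from them. Cells of unnamed clusters, outside these classes, held 40.5% of the member UMIs of library 1 and 32.8% of those of library 2. Astrocyte-like cells held 37.1% and 32.2%.

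**Figure D1:**
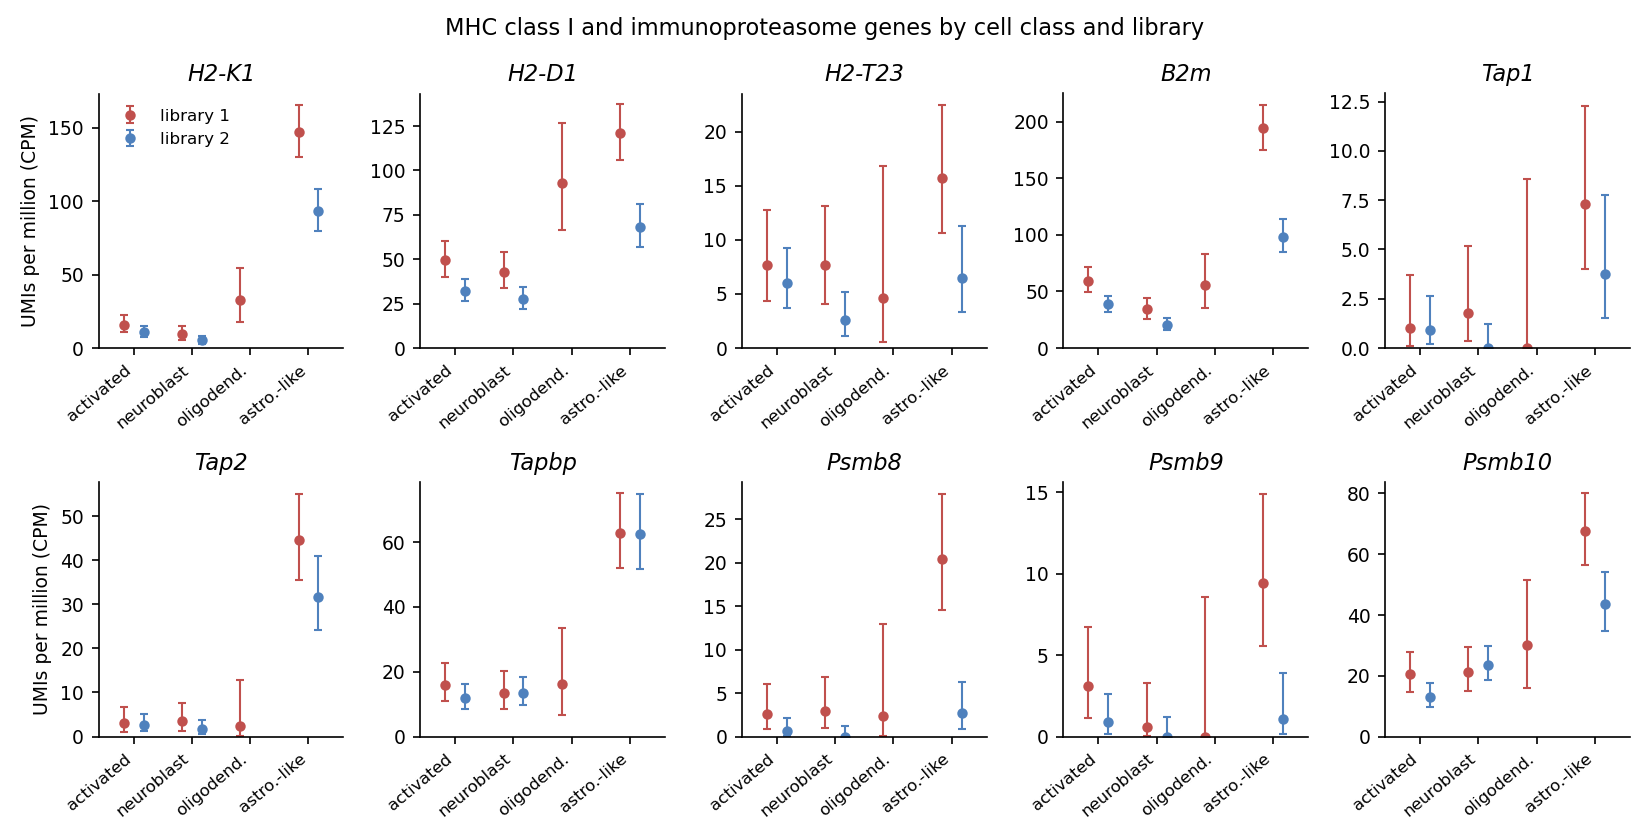
CPM of each gene (y axis, own scale per panel) in activated cells, neuroblasts, oligodendrocytes and astrocyte-like cells (x axis), library 1 in red and library 2 in blue, with exact 95% Poisson intervals. Oligodendrocytes of library 2 (9 cells) are left out; H2-K1, at 147 CPM in library 1 and 93.2 CPM in library 2 of astrocyte-like cells, is near the axis in the other classes.

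H2-K1, a classical heavy chain that presents peptide to CD8 T cells, stood at 15.9 CPM in library 1 and 11.1 CPM in library 2 of activated cells, and at 9.44 and 5.26 CPM in neuroblasts. It stood at 32.5 CPM in oligodendrocytes of library 1, and at 147 CPM (281 UMIs) in library 1 and 93.2 CPM (173 UMIs) in library 2 of astrocyte-like cells. H2-K1 was thus higher in astrocyte-like cells than in activated cells and neuroblasts of the same library and than in oligodendrocytes of library 1, with intervals that did not overlap. Its level in activated cells was 0.108-fold that in astrocyte-like cells in library 1 (0.0722 to 0.157) and 0.119-fold in library 2 (0.0809 to 0.170). Between libraries, H2-K1 was 1.58-fold higher in library 1 of astrocyte-like cells (1.30 to 1.92). The ratios in activated cells, 1.44-fold (0.863 to 2.38), and neuroblasts, 1.79-fold (0.840 to 3.83), had intervals that include equality.

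H2-D1, the other classical heavy chain of this strain, stood at 49.3 CPM in library 1 and 32.3 CPM in library 2 of activated cells, and at 43.1 and 27.6 CPM in neuroblasts. It stood at 92.9 CPM (66.4 to 127) in oligodendrocytes of library 1 and at 121 CPM (106 to 138) in library 1 and 68.4 CPM (57.0 to 81.4) in library 2 of astrocyte-like cells. The oligodendrocyte interval overlapped the astrocyte-like one, and H2-D1 was the single member of the 8 compared for which the oligodendrocyte level was less than 1.5-fold lower (0.768-fold, 0.535 to 1.08). Library 1 was higher than library 2 by 1.53-fold in activated cells (1.15 to 2.03), 1.56-fold in neuroblasts (1.12 to 2.16) and 1.77-fold in astrocyte-like cells (1.42 to 2.21).

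The balance between both classical heavy chains differed between astrocyte-like cells and the other named classes compared. H2-K1 made up 24.4% (17.2 to 32.8) in library 1 and 25.5% (18.6 to 33.4) in library 2 of the UMIs of both genes in activated cells, and 18.0% (10.6 to 27.5) and 16% (9.43 to 24.7) in neuroblasts. In oligodendrocytes of library 1 the share was 25.9% (14.96 to 39.7), and in astrocyte-like cells it was 54.9% (50.5 to 59.3) in library 1 and 57.7% (51.9 to 63.3) in library 2. The exact binomial intervals of astrocyte-like cells did not overlap those of the other classes given, whose own intervals overlapped one another. Unnamed clusters were outside this comparison, and the balance was not particular to the astrocyte-like class. Unnamed cluster 9, led by Prss56, gave 72 H2-K1 and 66 H2-D1 UMIs in library 1, and 13 and 24 in library 2. Astrocyte-like cluster 6 gave 25 and 34 in library 1, and 67 and 63 in library 2. The intervals of both libraries overlapped within each class, and whether the libraries differ was not tested. The pair's 3′ ends, which the assay counts, could be told apart: of 451 windows of 50 bases in the last 500 bases of an H2-K1 transcript, 2 also occurred in another gene (H2-D1), and of the H2-D1 windows 43 (9.53%) did.

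H2-T23 encodes the heavy chain of Qa-1, a nonclassical molecule read by natural killer cells. It gave 15 UMIs in library 1 and 20 in library 2 of activated cells (7.71 and 5.98 CPM), 13 and 8 in neuroblasts (7.67 and 2.63 CPM), and 30 and 12 in astrocyte-like cells (15.7 and 6.46 CPM). Of the 30 UMIs in astrocyte-like cells of library 1, 9 came from a single cell. The library 1 over library 2 ratio was 2.43-fold (1.21 to 5.21) in astrocyte-like cells, 2.91-fold (1.12 to 8.11) in neuroblasts and 1.29-fold (0.614 to 2.65) in activated cells. Of its windows, 38.1% also occur in other genes, so some of its reads may have been assigned elsewhere or dropped.

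B2m, the light chain that every class I molecule needs, stood at 59.6 CPM in library 1 and 38.6 CPM in library 2 of activated cells, and at 34.2 and 20.4 CPM in neuroblasts. It stood at 55.7 CPM in oligodendrocytes of library 1, and at 194 CPM (175 to 215) in library 1 and 98.6 CPM (84.8 to 114) in library 2 of astrocyte-like cells. B2m was higher in library 1 in each of the 3 classes compared, by 1.54-fold in activated cells (1.19 to 2.00), 1.68-fold in neuroblasts (1.15 to 2.44) and 1.97-fold in astrocyte-like cells (1.65 to 2.37). After each cell was thinned to 2000 UMIs, 30.6% of astrocyte-like cells had a B2m UMI in library 1 (26.6 to 34.8, 507 cells) and 18.4% in library 2 (15.004 to 22.1, 479 cells); unthinned, the shares were 40.3% and 29.0%. Neuroblasts, immature neurons that should hold little class I, gave thinned shares of 6.25% and 3.25%; median depths are given above.

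Tap1, a subunit of the peptide transporter, gave 2 UMIs in library 1 and 3 in library 2 of activated cells, 3 and 0 in neuroblasts, and 14 and 7 in astrocyte-like cells (7.33 and 3.77 CPM). Its ratio in astrocyte-like cells, 1.94-fold, had an interval from 0.734 to 5.69 and is not resolved at this depth. Tap2, the partner subunit, stood at 3.08 and 2.69 CPM in activated cells, 3.54 and 1.64 CPM in neuroblasts, and 44.5 CPM in library 1 and 31.8 CPM in library 2 of astrocyte-like cells. Tap2 had the lowest ratio to astrocyte-like cells of the members with at least 20 UMIs in activated cells, 0.0693-fold in library 1 (0.0247 to 0.157) and 0.0847-fold in library 2 (0.0369 to 0.172). Between libraries it was 1.40-fold higher in library 1 of astrocyte-like cells, with an interval from 0.993 to 1.99.

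Tapbp encodes tapasin, which bridges the empty class I molecule and the transporter. It stood at 15.9 and 11.96 CPM in activated cells, 13.6 and 13.5 CPM in neuroblasts, and 62.8 CPM (52.1 to 75.1) in library 1 and 62.5 CPM (51.6 to 74.9) in library 2 of astrocyte-like cells. Tapbp was the member with the smallest difference between libraries in astrocyte-like cells, 1.01-fold (0.772 to 1.31), while it was 0.254-fold (0.165 to 0.379) and 0.191-fold (0.130 to 0.276) in activated relative to astrocyte-like cells of libraries 1 and 2. The difference between classes was therefore larger than counting error for Tapbp, and the difference between libraries was not.

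Among the members, Psmb8 and Psmb9 held the largest ratios between libraries in astrocyte-like cells, while Psmb10 did not. Psmb8, a catalytic subunit that replaces Psmb5, gave 5 UMIs in library 1 and 2 in library 2 of activated cells, 5 and 0 in neuroblasts, and 39 UMIs in library 1 (20.4 CPM, 14.5 to 27.9) and 5 in library 2 (2.69 CPM, 0.874 to 6.29) of astrocyte-like cells. The ratio in astrocyte-like cells was 7.58-fold, with a wide interval of 2.99 to 24.6. Psmb9, which replaces Psmb6, gave 6 and 3 UMIs in activated cells, 1 and 0 in neuroblasts, and 18 UMIs in library 1 (9.42 CPM) and 2 in library 2 (1.08 CPM) of astrocyte-like cells, an 8.75-fold ratio (2.09 to 77.7). Both genes were thus seen mainly in astrocyte-like cells of library 1 among these classes; the 0 UMIs of each in neuroblasts of library 2 allow up to 3 UMIs (0.987 CPM).

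Psmb10, which replaces Psmb7, was captured in every class. It stood at 20.5 CPM in library 1 and 13.2 CPM in library 2 of activated cells, 21.2 and 23.7 CPM in neuroblasts, 30.2 CPM in oligodendrocytes of library 1, and 67.5 and 43.6 CPM in astrocyte-like cells. It was 1.55-fold higher in library 1 of astrocyte-like cells (1.16 to 2.07) and 1.56-fold in activated cells (0.992 to 2.45), and 0.897-fold in neuroblasts (0.584 to 1.36). Neuroblasts were the class in which Psmb10 did not stand higher in library 1, and whether its ratio differs between classes was not tested. Single neuroblast clusters lay on both sides of equality, as given below.

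Set against the constitutive subunit it replaces, Psmb8 made up 1.63% in library 1 and 0.337% in library 2 of the UMIs of Psmb8 and Psmb5 together in activated cells, and 8.61% (6.19 to 11.6) and 1.12% (0.364 to 2.59) in astrocyte-like cells. Psmb9 made up 3.28% (1.96 to 5.14) in library 1 and 0.370% (0.0449 to 1.33) in library 2 of the UMIs of Psmb9 and Psmb6 in astrocyte-like cells. Psmb10 made up 8.33% and 5.34% of the UMIs of Psmb10 and Psmb7 in activated cells, 8.47% and 9.56% in neuroblasts, 11.02% in oligodendrocytes of library 1, and 29.8% (25.5 to 34.3) and 22.3% (18.1 to 26.9) in astrocyte-like cells. These are shares of UMIs and not of protein or of assembled proteasomes. The constitutive genes themselves lay close in both libraries: Psmb5 was at 217 CPM in library 1 and 238 CPM in library 2 of astrocyte-like cells (0.910-fold), Psmb6 at 277 and 290 CPM (0.957-fold) and Psmb7 at 159 and 152 CPM (1.04-fold). None of the 3 reached a 1.5-fold difference between libraries in activated cells, neuroblasts or astrocyte-like cells.

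**Figure D2:**
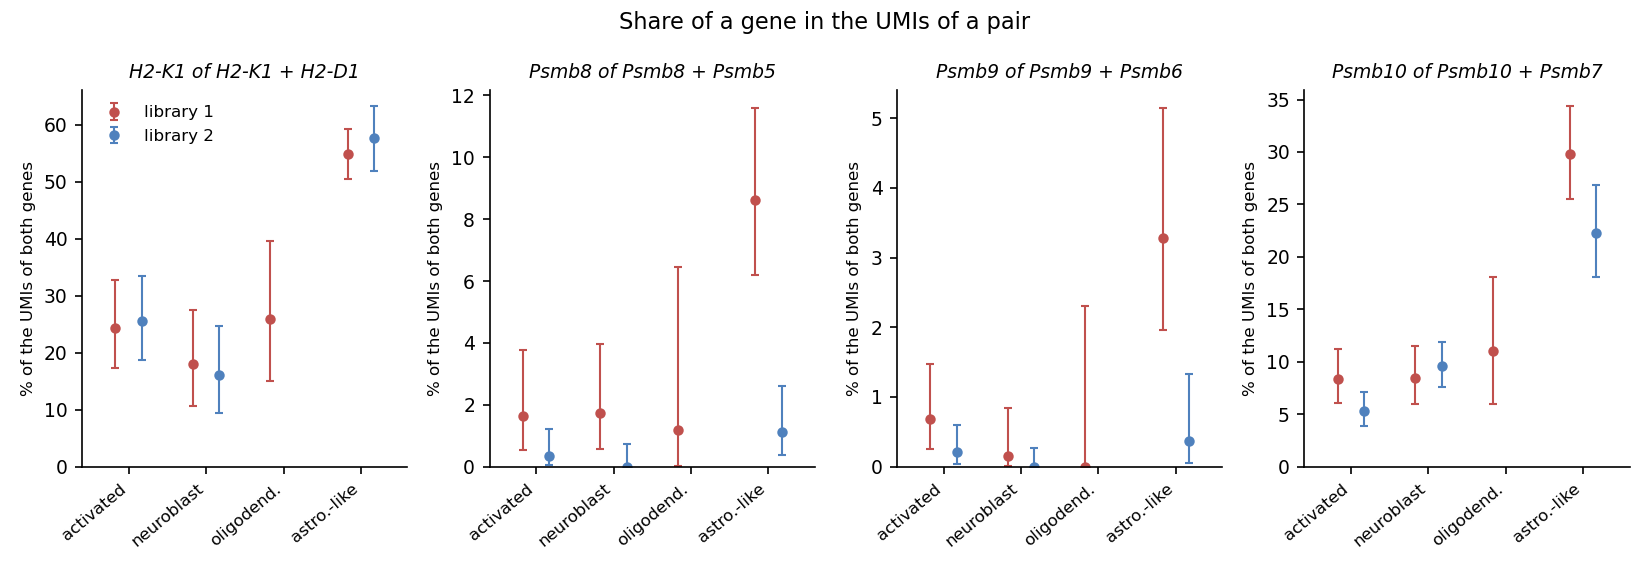
Share of one gene in the UMIs of a pair (y axis, percent) by cell class (x axis), library 1 in red and library 2 in blue, with exact 95% binomial intervals; oligodendrocytes of library 2 are left out. The H2-K1 share is 54.9% and 57.7% in astrocyte-like cells and at most 25.9% in the other classes shown, while the Psmb8 and Psmb9 shares separate both libraries within astrocyte-like cells.

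Taking the members together, all 10 passed 20 UMIs over both libraries in astrocyte-like cells and all 10 had a ratio above 1. Of these, 8 were at least 1.5-fold higher in library 1, against 8.62% of 10205 genes that passed the same minimum, and 7 had an interval above equality. The median log2 ratio of the 10 was 0.89, against -0.04 over those genes. The minimum counts both libraries together, and Psmb8 (39 and 5 UMIs) and Psmb9 (18 and 2) passed mainly through library 1. Their place among the 8 was thus partly set by the filter. Tap1 (14 and 7 UMIs), also among the 8, had an interval that includes equality. In activated cells 6 members passed the minimum, 3 of them (H2-D1, B2m and Psmb10) were at least 1.5-fold higher in library 1 against 8.28% of 10223 genes, and the median log2 ratio was 0.57 against 0.04. In neuroblasts 6 members passed, 4 of them (H2-K1, H2-D1, H2-T23 and B2m) were at least 1.5-fold higher against 10.3% of 10028 genes, and the median log2 ratio was 0.69 against 0.04. No member that passed was at least 1.5-fold lower in library 1, against 6.48% of genes in activated cells, 6.73% in neuroblasts and 12.7% in astrocyte-like cells. The count depends on the fold used: at 2-fold it was 0 in activated cells, 1 in neuroblasts and 3 in astrocyte-like cells.

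**Figure D3:**
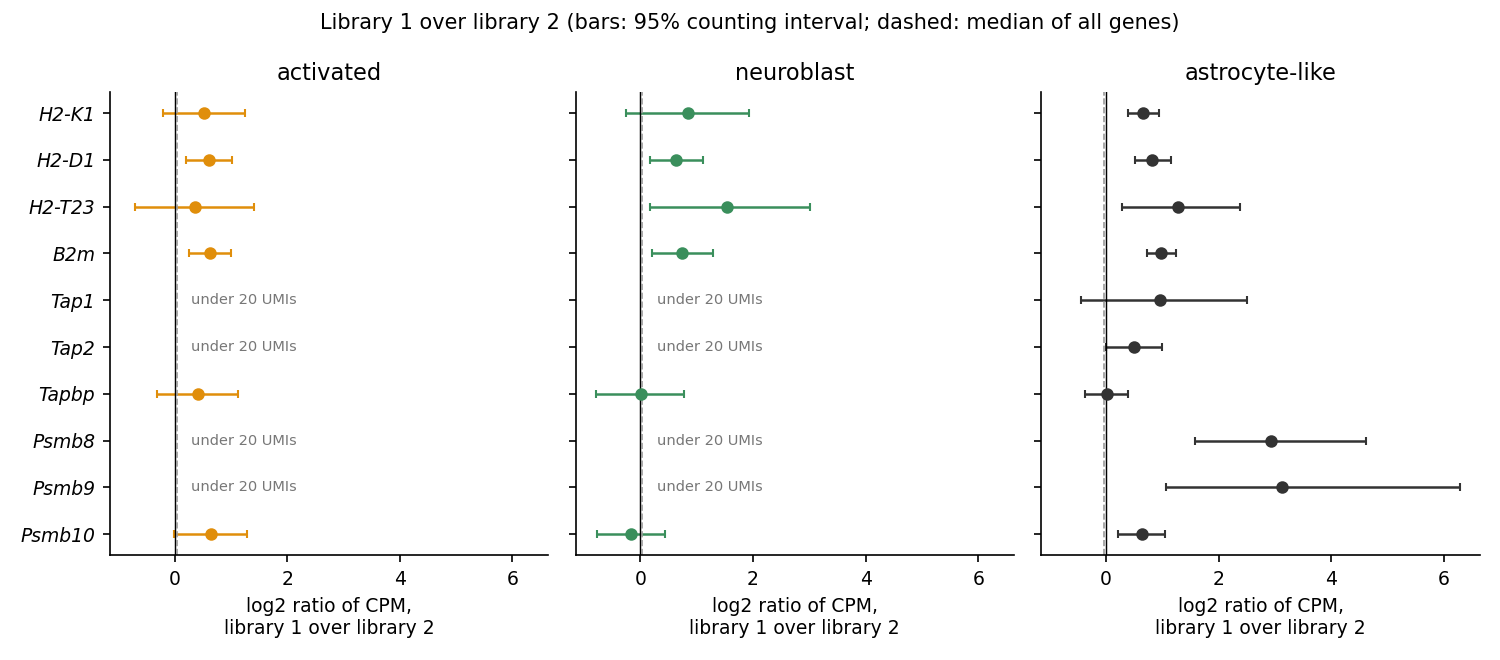
Log2 ratio of CPM, library 1 over library 2 (x axis), of each gene (y axis) in activated cells, neuroblasts and astrocyte-like cells, with exact 95% counting intervals and the median of all genes as a dashed line. In astrocyte-like cells Psmb8 (2.92) and Psmb9 (3.13) lie farthest to the right and Tapbp (0.01) lies on the line of no difference; genes under 20 UMIs are marked and not drawn.

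Between classes of 1 library, the members stood lower in activated cells than in astrocyte-like cells, with a median log2 ratio of -1.72 over 9 members in library 1 and -1.73 over 7 members in library 2. At least 1.5-fold lower were 9 of the 9 in library 1 (32.4% of all genes compared) and 6 of the 7 in library 2 (32.9%), H2-T23 at 0.925-fold being the other. Neuroblasts gave medians of -2.36 over 8 members in library 1 and -2.21 over 7 in library 2, and each of these members was at least 1.5-fold lower (31.8% and 32.9% of all genes). Oligodendrocytes of library 1 gave -1.88 over 8 members, of which 7 were at least 1.5-fold lower (37.1% of all genes). No member that passed was at least 1.5-fold higher, against 37.3% and 33.1% of genes in activated cells, 37.7% and 34.4% in neuroblasts, and 22.9% in oligodendrocytes. The minimum of 20 UMIs counts both sides together, so some members passed mainly through astrocyte-like cells, where they are high. In library 1, Tap2, Psmb8 and Psmb9 gave 85, 39 and 18 UMIs there and 6, 5 and 6 in activated cells. Tap2 and Psmb8 gave 1 UMI each in oligodendrocytes. That such members were called lower was partly set by the filter. The medians over all genes in these comparisons lay between -0.17 and 0.17. Of the 3 constitutive catalytic subunits, Psmb6 and Psmb7 were higher in activated cells than in astrocyte-like cells, by 1.63-fold and 1.42-fold in library 1 and 1.52-fold and 1.53-fold in library 2. Psmb5 was lower, at 155 CPM in activated and 217 CPM in astrocyte-like cells of library 1 (0.713-fold), and at 177 and 238 CPM in library 2 (0.742-fold).

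Because activated cells were deeper, the share of RNA and the UMIs per cell differ there. Summed over the 10 genes, an activated cell held 1.99 UMIs in library 1 and 1.23 in library 2, a neuroblast 0.639 and 0.566, and an astrocyte-like cell 2.30 and 1.49. Per cell, B2m stood at 0.663 UMIs in activated cells of library 1 and 0.647 in astrocyte-like cells, and H2-D1 at 0.549 and 0.403; in library 2 B2m stood at 0.403 and 0.356 and H2-D1 at 0.338 and 0.247. H2-K1 kept its order on this scale, with 0.177 UMIs per activated cell and 0.490 per astrocyte-like cell of library 1. So for B2m and H2-D1 the lower level in activated cells is a lower share of the RNA captured and not fewer UMIs per cell. The same held for H2-T23, with 15 UMIs in 175 activated and 30 in 573 astrocyte-like cells of library 1. In library 2 it gave 20 UMIs in 320 and 12 in 514 cells. Per-cell values of the other members are not given here.

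At an equal depth of 2000 UMIs per cell, most cells showed few of these transcripts. At least 1 of the 10 genes was seen in 26.9% of activated cells of library 1 and 18.5% of library 2, in 24.1% and 18.3% of neuroblasts, in 31.5% of oligodendrocytes of library 1, and in 71.0% and 56.8% of astrocyte-like cells. At least 3 different members were seen in 9.07% of astrocyte-like cells of library 1 (46 of 507, 6.72 to 11.9) and in 2.71% of library 2 (13 of 479, 1.45 to 4.60). Psmb8 was seen in 3.55% and 0.626% of astrocyte-like cells, which leaves most cells of both libraries with no Psmb8 UMI at this depth.

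The summed members had the same order of libraries within clusters, though single members did not. In each of the 12 clusters with at least 20 cells in both libraries the summed members were higher in library 1, by 1.202-fold to 2.21-fold, and in 10 of them the interval lay above equality. The median over members was above 0 in 11, the other being neuroblast cluster 5, led by the cell division genes Nusap1 and Ube2c, at -0.05 over 4 members. Cluster 6, the astrocyte-like cluster led by Gfap and Thbs4, had the largest ratio, with 879 CPM in library 1 and 398 CPM in library 2, and cluster 0 had 671 and 423 CPM (1.58-fold, 1.42 to 1.77). Psmb8 gave 14 UMIs in 49 cells of library 1 and 3 UMIs in 213 cells of library 2 in cluster 6 (79.9 and 3.66 CPM), and 25 and 2 UMIs in cluster 0 (14.4 and 1.93 CPM). Among single members, Tapbp was lower in library 1 of cluster 1 (29.2 and 53.3 CPM, 0.549-fold) and H2-T23 in cluster 2 (4 and 20 UMIs, 0.311-fold), each with an interval below equality. With intervals that include equality, Tapbp also stood lower in clusters 5, 6, 7, 8, 10 and 11, and H2-T23 in clusters 3, 4, 9 and 11. Psmb10 went both ways among neuroblast clusters, at 0.543-fold in cluster 5, 0.662-fold in cluster 7 and 1.58-fold in cluster 3. The intervals of these Psmb10 ratios include equality too. The sum was higher in library 1 within each astrocyte-like cluster, whose mix differed between libraries.

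**Figure D4:**
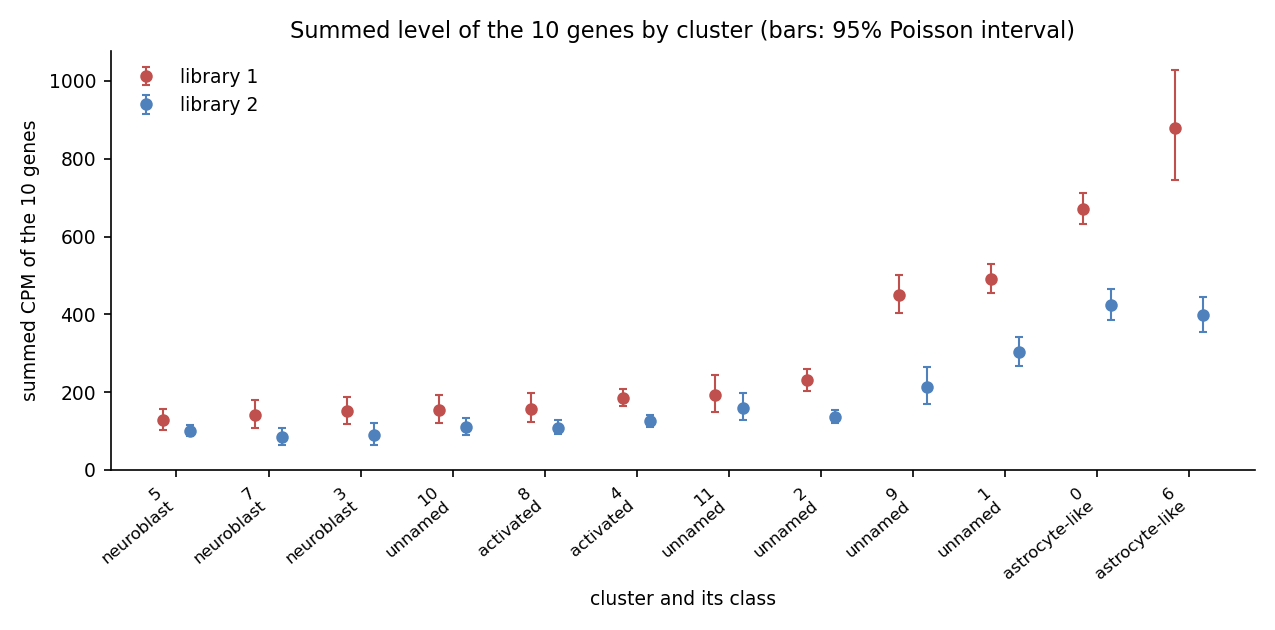
Summed CPM of the 10 genes (y axis) in the 12 clusters with at least 20 cells in both libraries (x axis, ordered by library 1), library 1 in red and library 2 in blue, with exact 95% Poisson intervals. Library 1 is higher in each cluster, from 1.202-fold to 2.21-fold, and the astrocyte-like clusters 0 and 6 lie highest.

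Single cells weighed on some values. In astrocyte-like cells of library 1, a cell of cluster 0 held 41 of the 1318 member UMIs, 29 of them B2m and 9 H2-D1, while the next cell held 20. It had 709 UMIs of astrocyte markers and 0 of the microglia, endothelial and lymphocyte markers. Without it the B2m ratio was 1.82-fold and that of the sum 1.63-fold. In activated cells of library 1 a cell held 21 UMIs, and leaving out the cell with most member UMIs on each side gave 1.43-fold for B2m and 1.45-fold for H2-D1. In neuroblasts the same step left H2-D1 at 1.45-fold and H2-T23 at 2.24-fold.

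Markers of other cell types were read beside these results. The 14 microglia markers summed to 9.95 CPM in library 1 and 12.9 CPM in library 2 of astrocyte-like cells. Of them, 7 had UMIs in library 1 and 9 in library 2, with C1qa, C1qb, C1qc, P2ry12, Tyrobp and Fcer1g seen in both. Ptprc, Cx3cr1, Aif1 and Laptm5 were at 0 in both. Neuroblasts gave 4.72 and 7.23 CPM of this list and activated cells 6.68 and 10.2 CPM. The 10 endothelial markers summed to 4.71 and 5.39 CPM in astrocyte-like cells, where 2 of them (Pecam1 and Esam) had UMIs in each library. The others, Cldn5, Flt1 and Cdh5 among them, were at 0. Neuroblasts gave 1.18 and 5.92 CPM and activated cells 1.54 and 4.79 CPM. The lymphocyte markers gave 0 UMIs in astrocyte-like cells of both libraries. These lists were not higher in library 1. In cells with no UMI of any of these 3 lists the sum of members was 694 CPM in library 1 and 403 CPM in library 2 of astrocyte-like cells (1.72-fold).

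UMIs of the marker lists of other classes did differ between the libraries. Whether the cells made this RNA themselves was not tested. The 20 astrocyte markers summed to 7198 CPM in library 1 and 5438 CPM in library 2 of activated cells, to 5100 and 3664 CPM in neuroblasts, and to 119748 and 98282 CPM in astrocyte-like cells. Since astrocyte-like cells hold more of the members, these values stand beside the ratios of activated cells and neuroblasts, and their part in those ratios was not tested. Although O4-positive cells had been sorted out, the 12 oligodendrocyte markers summed to 767 CPM in library 1 and 73.0 CPM in library 2 of activated cells, to 358 and 77.6 CPM in neuroblasts, and to 587 and 266 CPM in astrocyte-like cells. In library 1 the members themselves summed to 237 CPM in oligodendrocytes, below astrocyte-like cells (690 CPM) and above activated cells (179 CPM) and neuroblasts (138 CPM). The part of oligodendrocyte RNA in the ratios of these classes was not tested. In astrocyte-like cells with no UMI of these markers, 103 in library 1 and 223 in library 2, the sum of members was 591 CPM and 419 CPM (1.41-fold, 1.16 to 1.71). There B2m stood at 173 CPM (128 to 229) and 105 CPM (83.0 to 131), and H2-D1 at 113 CPM (77.4 to 160) and 61.9 CPM (45.3 to 82.6). H2-K1 stood at 106 and 98.3 CPM. The Poisson intervals of both libraries overlapped for each of these genes. Such an overlap does not show that the libraries are equal, and no ratio interval is given for single members in these cells. Psmb8 gave 3 UMIs and 1 UMI in these cells, too few to compare, and H2-T23 gave 1 UMI in library 1 and 8 in library 2. In neuroblasts with no such UMI, 98 and 327 cells, the sum was 133 and 90.0 CPM (1.48-fold, 1.02 to 2.10), but B2m gave 13.0 CPM in library 1 (4 UMIs) and 20.6 CPM in library 2, and H2-K1 gave 1 UMI and 11 UMIs. In activated cells 11 such cells were left in library 1, with 11 member UMIs, too few to read, and the part of oligodendrocyte RNA in that result was not tested. This selection of cells was chosen after the data had been seen.

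Other genes of the pathway showed where the library difference was and was not found in astrocyte-like cells. Of 11 other proteasome core subunits none was 1.5-fold higher or lower in library 1 (median log2 0.01), nor was any of the 4 proteasome activator genes (median -0.13), among them the interferon-responsive Psme1 (80.1 and 82.4 CPM) and Psme2 (62.8 and 73.3 CPM). Of 7 other loading and trimming genes, 6 passed 20 UMIs and none was 1.5-fold apart (median -0.09); Canx, the chaperone calnexin, stood at 191 and 241 CPM (0.791-fold). Of 17 other class I heavy chains 16 were in the table, 5 passed and 3 were at least 1.5-fold higher (median 0.68): H2-T22, Mr1 and Hfe. Mr1, which presents metabolites to specialised T cells, stood at 18.3 and 8.62 CPM (2.13-fold, log2 interval 0.20 to 2.04), and Fcgrt, the neonatal Fc receptor, at 67.0 and 70.6 CPM (0.950-fold). The class II pathway gave no gene with 20 UMIs in any of the 3 classes, Cd74 and Ciita being at 0 in astrocyte-like cells of both libraries.

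Transcriptional regulators of class I genes lay on both sides of equality in astrocyte-like cells. Rfxank, a part of the complex that binds class I and class II promoters, stood at 35.1 and 22.6 CPM (1.55-fold), Irf1 at 24.1 and 16.2 CPM (1.49-fold) and Irf2 at 37.7 and 26.9 CPM (1.40-fold). Rfxap, another part of that complex, gave 11 and 29 UMIs (5.76 and 15.6 CPM, 0.369-fold); it and the other genes under 50 UMIs were named after their values had been seen. Nlrc5, a class I transactivator, gave 2 and 0 UMIs in astrocyte-like cells and could not be compared. Of 12 interferon and receptor genes 8 passed in astrocyte-like cells, 2 were at least 1.5-fold higher (Jak2 and Tyk2) and 1 at least 1.5-fold lower (Socs3, 34.0 and 56.6 CPM, 0.602-fold), with a median of 0.04. Ifng and Ifnb1 gave 0 UMIs in all 3 classes of both libraries, and Ifngr1, a subunit of the interferon gamma receptor, stood at 58.6 and 40.4 CPM (1.45-fold).

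The log2 level of the summed members was compared with that of single genes across 27 points, each a cluster of 1 library with at least 20 cells. These were 9161 genes outside the members, and the members that also had at least 200 UMIs. B2m and H2-D1, which are part of the sum, ranked highest, and the genes outside the members most alike were Apoe (Pearson r = 0.941), the main lipid carrier of astrocytes, then Nebl, Cyp2j6, Tspan3, Dhrs7, Ugp2, Fam213a, Gpr37l1, Cpq and Itm2c (0.917). Within library 1 (13 points) the r of Apoe was 0.981 and within library 2 (14 points) 0.915. The points share clusters, libraries and depth, so this is a description of where the transcripts were found. Among the 45 pairs of members r ranged from 0.0881 to 0.941, with a median of 0.655, and 4 pairs reached 0.8.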

How the data were processed

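Cells of 2 libraries, 1 per age, were captured with a 10x Chromium 3′ kit from pooled mice, per the labels' protocols. The authors deposited 1 matrix of UMI counts per gene and cell, not normalized, made with Cell Ranger 2.0.0 on mm10 (GRCm38.p3), per the submitters' processing notes; how cells were called and the libraries joined is not given in the sources used here. The number after each barcode gave the library, and 0 columns were set aside.

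From these counts, cells were kept from 500 detected genes upwards if mitochondrial UMIs did not exceed 10%, and doublets marked by Scrublet (scanpy 1.11.5, expected rate 1.5%, run per library) were removed. Clusters came from 2000 variable genes outside the gene lists, 30 principal components, 15 neighbours and Leiden resolution 1. A cluster was named from markers when at least 3 were 1.5-fold higher and its leading genes held no more markers of another class than of its own; that rule was set after clusters had been seen. UMIs were summed per class and library and divided by their total (CPM), so a level is a share and falls when other RNA rises. Intervals are exact (Poisson, binomial, or conditional binomial for ratios) at 95%. They ignore variation between mice. A ratio was compared with 1.5-fold where both sides together had at least 20 UMIs; shares of cells used cells thinned to 2000 UMIs. A count of 0 allows up to 3. The ratio code was tested on simulated data. All 10 members are reported; of other lists, up to 3 genes with the largest ratio among those with at least 50 UMIs, and the 10 genes most alike. Members, lists and motifs were chosen with earlier results of these data known, and the motifs after matches of several patterns had been looked at. Of the alternatives, 12 were planned and 2 were added after seeing the data. Counts over the list of transcriptional regulators are not reported here.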

Additional observations from a re-analysis of the deposited data

Results flagged for a closer look

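Cluster 16, with the microglia markers C1qa, Ctss, Tyrobp, Trem2 and Tmem119 among its leading genes, was outside the 4 classes compared and gave a higher summed level of the 10 genes than each of them. The sum was 6581 CPM in library 1 (2 cells, 55 UMIs) and 4841 CPM in library 2 (4 cells, 71 UMIs). B2m gave 4188 and 2114 CPM, H2-D1 1197 and 1296 CPM, and H2-K1 359 and 818 CPM. Psmb8 gave 0 UMIs and 1 UMI. These cells held 1.55% and 2.99% of the member UMIs of their library.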

How the results depend on the processing

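No paired analysis was possible because each age is a single library and the table carries no replicate number. The median log2 ratio of members, library 1 over library 2, stayed above 0 under every alternative run, between 0.43 and 0.83 in activated cells, 0.32 and 0.79 in neuroblasts, and 0.59 and 0.94 in astrocyte-like cells. The count of members at least 1.5-fold higher moved more. In astrocyte-like cells (8) it was 4 with thinned cells, 4 at a minimum of 50 UMIs, 5 in the largest cluster, 3 at 2-fold and 3 in cells free of oligodendrocyte markers. In activated cells (3) it was 1 with thinned cells, 5 with doublets kept, 1 under the stricter cell filter, 5 at a minimum of 1 UMI and 0 at 2-fold. In neuroblasts (4) it was 1 with thinned cells, 2 at a minimum of 50 UMIs, 2 without the top cell of each member, 2 in the largest cluster and 1 at 2-fold. A higher minimum leaves fewer members to count; otherwise the cause was not tested. Of the other values for single members 678 stayed, 22 moved and 4 reversed. In cells free of oligodendrocyte markers the log2 ratio was -1.61 for H2-T23 in astrocyte-like cells, and -0.96 for H2-K1 and -0.67 for B2m in neuroblasts. With thinned cells, H2-T23 in oligodendrocytes over astrocyte-like cells of library 1 was 0.24. Activated cells free of oligodendrocyte markers gave no value, as 11 were left in library 1. Depth limits Tap1, Tap2, Psmb8 and Psmb9 in the library comparison of the other classes, where none of them reached 20 UMIs.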

Other observations

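Oligodendrocyte precursors, 16 cells in library 1 and 30 in library 2, gave 731 CPM (535 to 975) and 463 CPM (349 to 603) of the 10 genes together. B2m gave 286 and 228 CPM and H2-D1 254 and 101 CPM there, while H2-K1 gave 3 UMIs and 1 UMI and Psmb8 gave 0 in both. Among unnamed clusters, cluster 1, led by the immediate early genes Junb and Atf3 with Socs3 and Cxcl10, gave 491 CPM in library 1 and 303 CPM in library 2 (1.62-fold), and cluster 9, led by Prss56, Notum and Ecel1, gave 449.8 and 214 CPM (2.10-fold).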
